A study of Mus musculus with 12 samples.

Results

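The genes described here are 10 regulators and structural genes of skeletal muscle, chosen by name from the 26190 genes of the deposited table, where all 10 were found. They comprised Pax3 and Pax7, the myogenic regulatory factors Myf5, Myod1, Myf6 and Myog, the receptor subunit gene Chrna1, the developmental myosin heavy chain genes Myh3 and Myh8, and the creatine kinase gene Ckm. They were picked because earlier results of the same data had shown Myod1 in some organoid libraries and not in others, so the contrast between those organoid libraries is given as a description and was not tested. The study grew heart organoids (HOs), which are beating structures with atrium-like and ventricle-like parts, from embryoid bodies of wild-type mouse embryonic stem cells in medium with FGF4 on a gel of laminin and entactin. RNA was sequenced from 4 groups of 3 libraries, namely atria and ventricles of C57BL/6 embryonic hearts taken at E11.5 (E11.5H), and both parts cut from HOs that were cultured for 13 days. The labels give C57BL/6 as the strain of the HOs, while the methods of the study name several independent stem cell lines of C57BL/6 and of a C57BL/6 x JF1 hybrid. Which line, embryos or number of organoids went into each library is not given in the sources used here, so p-values measure the spread between these libraries. The methods of the study also add BMP4, the small molecule BIO, an inhibitor of GSK3 that activates Wnt signaling, and LIF to the HO medium in the later part of the culture, before the 13-day HOs were collected, and E11.5H had no such treatment. No mutation is given for any group. The HOs were cut into both parts after culture, so same-numbered atrium-like and ventricle-like libraries may come from the same organoids, which the sources used here do not state.

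Skeletal muscle of the body arises from somites, and that of the head from cranial mesoderm. In the somite Pax3 and Pax7 mark muscle progenitors, Myf5 and Myod1 commit cells to the muscle lineage, Myog drives them to differentiate, and Myf6 acts in commitment and in later fibers. Cardiomyocytes contract with many of the same proteins but form without the MyoD family of factors, which bind the E-box sequence in the control regions of muscle genes. Fused fibers use Chrna1 in the acetylcholine receptor of the neuromuscular junction, Myh3 and Myh8 as embryonic and perinatal fast myosins, and Ckm to buffer ATP, the last in heart muscle as well.

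The libraries held 23971258 to 30540993 fragments assigned to genes, at which a count of 0 allows up to 0.0982 to 0.125 CPM (counts scaled to the library total), taking 3 counts as the limit and covering counting error only. Levels are given as FPKM, as deposited, which are scaled to transcript length and can be compared between genes. Cardiomyocyte markers were found in every library, with all 14 listed markers above that limit, but their summed level was 13447 to 19507 FPKM in E11.5H and 304 to 3947 FPKM in HOs. HO libraries of 1 group differed more from each other than E11.5H libraries did, with Pearson correlations of log2 levels of 0.918 to 0.967 in HOs and 0.992 to 0.995 in E11.5H. A low level in a whole-tissue library can come from few cells of a type or from little RNA per cell, and these cannot be told apart.

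The promoter windows of the members whose values carry the description are shown first, because the MyoD family factors that separate the libraries are E-box binding proteins. They are RefSeq sequences of GRCm38.p6 that run from 250 bases before to 50 bases after the annotated start, 5′ to 3′ along the gene, with each E-box (CANNTG, which reads as the same pattern on both strands) in capitals. Windows were found for 7 of the 10 members and not for Myod1, Myf6 and Pax3. The Myog window is chr1:134289754-134290053 on the plus strand, Chrna1 is chr2:73580289-73580588 on the minus strand, Myh3 is chr11:67078050-67078349, Myh8 is chr11:67276874-67277173 and Ckm is chr7:19410844-19411143, the last 3 on the plus strand.
Myog: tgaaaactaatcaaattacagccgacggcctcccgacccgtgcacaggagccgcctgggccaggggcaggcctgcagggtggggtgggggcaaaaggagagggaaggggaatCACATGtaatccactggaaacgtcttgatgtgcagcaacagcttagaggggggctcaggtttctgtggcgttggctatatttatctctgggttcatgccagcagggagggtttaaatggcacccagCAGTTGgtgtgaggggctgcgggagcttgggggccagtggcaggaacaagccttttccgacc
Chrna1: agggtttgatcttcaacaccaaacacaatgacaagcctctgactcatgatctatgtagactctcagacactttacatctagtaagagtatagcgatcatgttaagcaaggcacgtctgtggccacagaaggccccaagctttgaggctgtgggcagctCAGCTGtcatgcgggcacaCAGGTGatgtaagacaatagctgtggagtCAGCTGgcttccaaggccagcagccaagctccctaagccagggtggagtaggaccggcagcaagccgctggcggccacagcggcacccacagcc
Myh3: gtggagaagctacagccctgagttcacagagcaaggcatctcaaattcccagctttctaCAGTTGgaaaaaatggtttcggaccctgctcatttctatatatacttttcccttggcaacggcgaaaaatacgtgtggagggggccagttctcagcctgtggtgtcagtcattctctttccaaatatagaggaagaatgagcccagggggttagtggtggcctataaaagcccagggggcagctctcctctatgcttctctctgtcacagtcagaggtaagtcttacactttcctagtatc
Myh8: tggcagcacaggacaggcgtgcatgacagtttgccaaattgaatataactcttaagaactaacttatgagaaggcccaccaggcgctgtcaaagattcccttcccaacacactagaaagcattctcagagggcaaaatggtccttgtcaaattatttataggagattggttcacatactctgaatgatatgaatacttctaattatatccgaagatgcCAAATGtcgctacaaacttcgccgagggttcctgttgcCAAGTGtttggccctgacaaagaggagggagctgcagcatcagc
Ckm: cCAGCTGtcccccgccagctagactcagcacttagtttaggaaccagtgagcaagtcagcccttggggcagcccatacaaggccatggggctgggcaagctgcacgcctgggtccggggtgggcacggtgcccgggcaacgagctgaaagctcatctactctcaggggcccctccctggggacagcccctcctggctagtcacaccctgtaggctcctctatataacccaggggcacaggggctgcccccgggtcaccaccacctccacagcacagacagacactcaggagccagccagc

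The Chrna1 window held 3 E-boxes, at 92, 73 and 44 bases before the start, counting from the first base of each match. Those at 92 and 44 bases had the core CAGCTG, and 623 of 32851 promoter windows of the same length (1.90%) held 2 or more such matches. The Myog window held 2 E-boxes, at 138 and 12 bases before the start, and Myh8 held 2, at 32 bases before the start and at base 7 after it. Myh3 and Ckm held 1 each, at 191 and 249 bases before the start, and that of Ckm was CAGCTG. At least 1 E-box was present in 72.3% of all windows, at least 2 in 39.6% and at least 3 in 17.6%. The MEF2 consensus was searched on both strands as YTAWWWWTAR, where Y is C or T, W is A or T and R is A or G. A full match was found in Myh8 at 99 bases before the start, and 3.19% of all windows had one. Near matches were not counted, so a window without a match may still hold a similar stretch. The windows of Myf5 and Pax7 held none of these matches. A match is a stretch of letters and no measure of binding.

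**Figure D1:**
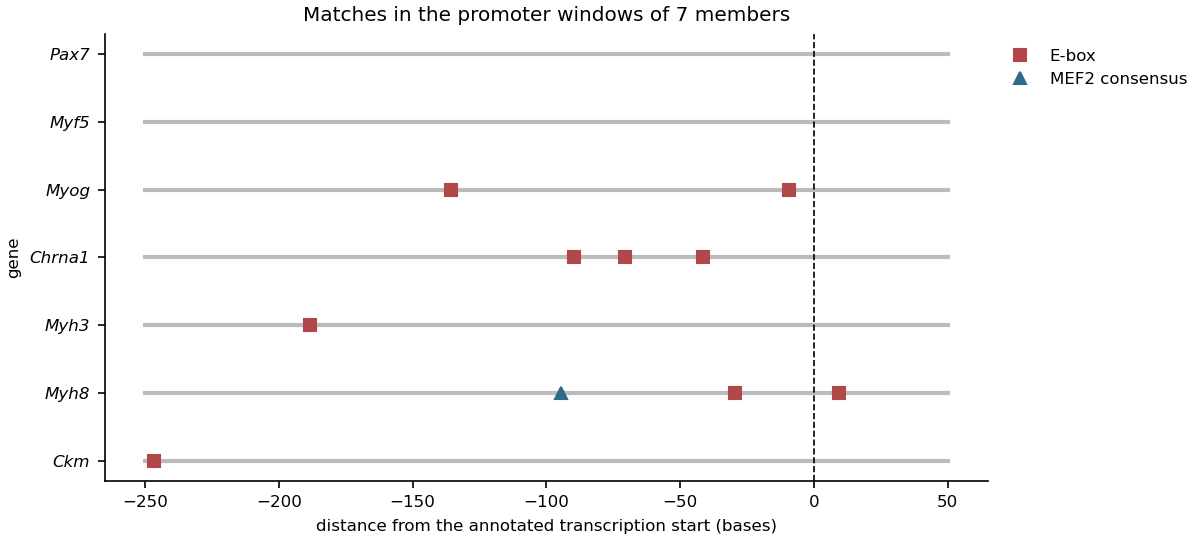
Matches to the E-box (squares) and to the MEF2 consensus (triangle) in the promoter windows of 7 members, by distance in bases from the annotated transcription start (dashed line). Chrna1 holds 3 E-boxes within 92 bases before the start, Myog and Myh8 hold 2 each, and Pax7 and Myf5 hold none.

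Myod1 and Myog were found at high fragment numbers in only 2 of the 6 HO libraries, replicate 2 of the atrium-like parts and replicate 2 of the ventricle-like parts. These may be parts of the same organoids, so they are not taken as 2 independent occurrences. Myod1, the factor that commits cells to skeletal muscle, lies at chr7:46376474-46379092 of GRCm38 and was at 10.2 FPKM (643 fragments) in atrium-like replicate 2 and at 19.3 FPKM (1169 fragments) in ventricle-like replicate 2. It was at 0 in the other 4 HO libraries, so no library lay near the limit of 1 fragment that divides them, and the same 2 libraries held Myod1 when at least 4 fragments were asked for. In CPM its level was 22.0 (95% exact binomial interval 20.3 to 23.8) and 41.9 (39.5 to 44.4), intervals that cover counting error only. In E11.5H it was at 0.0610, 0.817 and 3.42 FPKM in atria replicates 1, 2 and 3, and at 0 in all 3 ventricle libraries. The Myod1 level thus ran from ventricle-like replicate 2 through atrium-like replicate 2 to atria replicates 3, 2 and 1, and each of these 5 counting intervals was separate from the next.

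Myog, the factor of terminal muscle differentiation at chr1:134290004-134292548, had the highest level of all members in both of these HO libraries, at 29.0 and 30.0 FPKM. In the other HO libraries it was at 0, 0.0415, 0 and 0 FPKM, the second of these from 2 fragments in atrium-like replicate 3. In atria of E11.5H it was at 0.649, 1.30 and 7.95 FPKM in replicates 1, 2 and 3, and in ventricles at 0.0421, 0.126 and 0 FPKM. Myog therefore exceeded Myod1 in both HO libraries, 2.84 times in the atrium-like and 1.55 times in the ventricle-like one, and 2.32 times in atria replicate 3.

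The other 2 factors of the family were low. Myf5, at chr10:107482908-107486134, was at 0.312 FPKM in atrium-like replicate 2, 0.411 FPKM in ventricle-like replicate 2 and 0 in the other HO libraries. It was at 0, 0.114 and 0.384 FPKM in the 3 atria and at 0 in the 3 ventricles of E11.5H. Myf6, its neighbour at chr10:107492849-107494723, was at 0.471 FPKM (20 fragments) and 0.147 FPKM (6 fragments) in the same HO libraries, at 0 in the other 4, and at 0.0225, 0.118 and 0.148 FPKM in atria. Set against Myod1 in the same library, Myf5 was at 0.0305 and 0.0213 of its FPKM in the HO libraries, and at 0.140 and 0.112 in atria replicates 2 and 3. The Myf5 share of the myogenic signal was thus lower in the HO libraries than in these atria libraries, a description with no test.

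The paired box genes did not move as a pair. Pax3, at chr1:78101267-78197136, was at 0.854 and 1.04 FPKM in the HO libraries with Myod1, at 0 in the other 4, and at 0, 0.123 and 0.812 FPKM in the 3 atria. Pax7, at chr4:139738081-139832968, was at 0 in both HO libraries with Myod1 and was found among HOs only in atrium-like replicate 3, at 0.180 FPKM (25 fragments), a library with no Myod1, Myf5, Myf6 or Pax3 fragment. In E11.5H Pax7 was at 0.0139 and 0.0288 FPKM in atria replicates 2 and 3, from 2 and 4 fragments. Both genes also act in the neural tube and neural crest, and the neural markers are given further on.

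**Figure D2:**
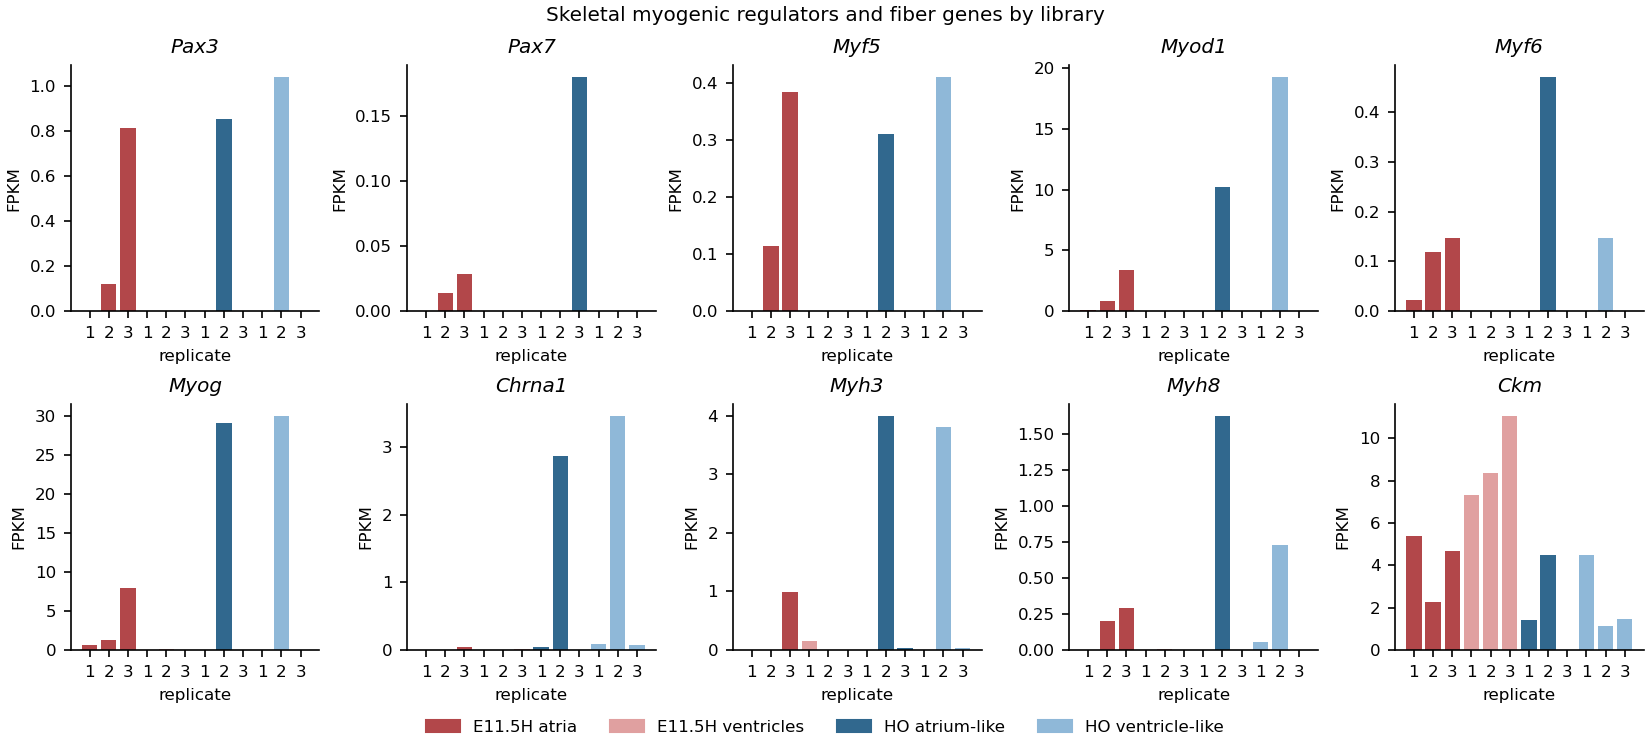
FPKM of each of the 10 members (bars, linear axis from 0, with its own scale per panel) in the 3 replicates of atria and ventricles of E11.5H and of both HO parts. Replicate 2 of both HO parts holds Myod1, Myog, Pax3, Myf5, Myf6, Chrna1, Myh3 and Myh8, atria replicate 3 holds lower levels of Myod1 and Myog, Pax7 appears in another HO library, and Ckm is highest in ventricles of E11.5H.

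Genes of the fiber followed the same libraries. Chrna1, the alpha subunit of the muscle acetylcholine receptor at chr2:73563281-73580338, was at 2.87 FPKM in atrium-like replicate 2 and 3.47 FPKM in ventricle-like replicate 2. In the other 4 HO libraries it was at 0.0404, 0, 0.0837 and 0.0710 FPKM, and in the 6 E11.5H libraries at no more than 0.0405 FPKM. In atria replicate 3, which had 7.95 FPKM of Myog, Chrna1 came to 5.7 fragments. Its share of Myod1 was 0.281 and 0.180 in the HO libraries and 0.00561 and 0.0118 in atria replicates 2 and 3.

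Myh3, the embryonic myosin heavy chain at chr11:67078300-67102291, was at 4.0 and 3.82 FPKM in the HO libraries with Myod1 and at 0, 0.0256, 0 and 0.0257 FPKM in the other 4. In E11.5H it was found in atria replicate 3 at 0.992 FPKM and in ventricles replicate 1 at 0.151 FPKM, and was at 0 in the other 4 libraries. Myh8, the perinatal myosin heavy chain at chr11:67277124-67308633, was at 1.62 and 0.725 FPKM in the same HO libraries and at 0, 0, 0.0546 and 0 FPKM in the others. In atria it was at 0, 0.203 and 0.291 FPKM and in ventricles at 0, 0.00504 and 0 FPKM. The 2 genes belong to a cluster of similar myosin genes, and fragments may have been shared between them. Myh3 was above Myh8 in both HO libraries and in atria replicate 3, while in atria replicate 2 Myh8 had 42 fragments and Myh3 had 0.

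Ckm, the muscle creatine kinase at chr7:19411094-19421583, did not follow Myod1. It was at 1.43, 4.50 and 0 FPKM in atrium-like replicates 1, 2 and 3, and at 4.49, 1.15 and 1.48 FPKM in ventricle-like replicates 1, 2 and 3, so that ventricle-like replicate 2, the library with the most Myod1, had the lowest Ckm of its group. In E11.5H it was at 5.39, 2.27 and 4.67 FPKM in atria and 7.32, 8.38 and 11.1 FPKM in ventricles, and these groups did not overlap. Ckm overlaps A930016O22Rik on the opposite strand, and the use of strand in counting is not given in the sources used here, so its fragments are uncertain to that extent. Myh3 overlaps the microRNA gene Mir6923 on its own strand.

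Over the 6 HO libraries, 7 of the 8 members with at least 1 CPM in some HO library were higher in both libraries with Myod1 than in each of the other 4, and Ckm was not. The same order held for 2968 of 16114 genes with that level (18.4%), and nothing is read from the members' count because they were chosen for this contrast. Myf6 and Pax7 stayed under 1 CPM. Of the 16114 genes 6.58% were lower in both than in each of the other 4.

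The wider program of muscle differentiation was described with 34 genes in 4 lists outside the members. Of the 32 with at least 1 CPM in an HO library, 23 (71.9%) were higher in both HO libraries with Myod1 than in each of the other 4. Over all 16114 genes with that level the share was 18.4%. The lists were chosen with earlier results known, and genes such as Mymx reached 1 CPM only through the libraries with Myod1. Nothing is therefore read from this count or from those of the single lists. In the myoblast fusion and adhesion list this held for 4 of 4 genes. Mymk and Mymx, which encode the membrane proteins that fuse myoblasts, were at 4.82 and 4.32 FPKM in atrium-like replicate 2, at 5.76 and 5.61 FPKM in ventricle-like replicate 2, and elsewhere in HOs at 0 except for 0.206 FPKM of Mymk in atrium-like replicate 3. The cadherin gene Cdh15 was at 2.37 and 2.85 FPKM against at most 0.0615 FPKM. The laminin-binding integrin gene Itga7 was at 8.64 and 8.78 FPKM, but also at 7.21 FPKM in ventricle-like replicate 1, so for this gene the separation was small.

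Among 7 neuromuscular junction genes with at least 1 CPM the order held for 4, Chrng, Chrnd, Musk and Rapsn. Chrng, the fetal gamma subunit of the acetylcholine receptor, was at 4.30 and 5.45 FPKM and at 0 in the other 4 HO libraries. In E11.5H it was at 1.07, 0.806 and 0.106 FPKM in ventricles, which held no Myod1, and at 0, 0 and 0.914 FPKM in atria. The delta subunit gene Chrnd was at 0.766 and 1.26 FPKM and at 0 in the other 4 HO libraries and in all 6 E11.5H libraries. Rapsn, which clusters the receptor, was at 2.06 and 2.84 FPKM against 0.129 to 1.01 FPKM in the others, but at 3.85 to 8.64 FPKM in E11.5H. Chrne, the adult epsilon subunit, stayed under 1 CPM, while Chrnb1 and Dok7 overlapped between the libraries.

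In the skeletal sarcomere list the order held for 10 of 14 genes. Tnnc2, the fast troponin C, was at 31.3 and 28.5 FPKM in the HO libraries with Myod1, at 0, 0.133, 0.132 and 0.624 FPKM in the others, and at no more than 1.34 FPKM in E11.5H. Mylpf, a fast myosin light chain, was at 37.6 and 37.4 FPKM against 1.66 to 3.02 FPKM in the other HO libraries, and E11.5H had 11.2 to 18.5 FPKM of it. Myl1 and Tnni2 overlapped between the HO libraries and reached 874 and 44.2 FPKM in E11.5H atria. Of the adult fast myosins, Myh4 was at 0.288 and 0.299 FPKM and Myh1 at 0.0147 and 0.282 FPKM, and Myh2 stayed under 1 CPM in all HO libraries.

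In the excitation-contraction list the order held for 5 of 7 genes, Ryr1, Cacna1s, Cacng1, Stac3 and Atp2a1. Cacng1, the gamma subunit of the skeletal calcium channel, was at 4.08 and 5.06 FPKM, at 0.743 FPKM in ventricle-like replicate 3 and at 0 in the remaining HO libraries and all of E11.5H. Atp2a1, the fast calcium pump, was at 7.98 and 7.43 FPKM against at most 1.15 FPKM in the other HO libraries, and at 7.65 to 13 FPKM in atria of E11.5H. Casq1 and Jsrp1 overlapped. Casq1, a calcium store protein gene, was highest among HOs in ventricle-like replicate 1, at 44.8 FPKM.

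Genes upstream of the members and genes that the embryonic heart also uses gave lower counts. Of 13 muscle progenitor genes with at least 1 CPM, 6, among them Eya1, Lbx1, Meox1, Meox2 and Tbx1, were higher in both HO libraries with Myod1 and Met was lower. Meox1, a homeobox gene of the somite, was at 2.35 and 1.65 FPKM against 0.237 to 0.609 FPKM. Tcf21, the most abundant gene of this list in HOs, overlapped between the libraries. Of 12 muscle genes shared with the embryonic heart 2 were higher, Sln and Mybpc1, while Actc1, Tnni1, Tnnc1 and Acta1, the most abundant of the list, overlapped.

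**Figure D3:**
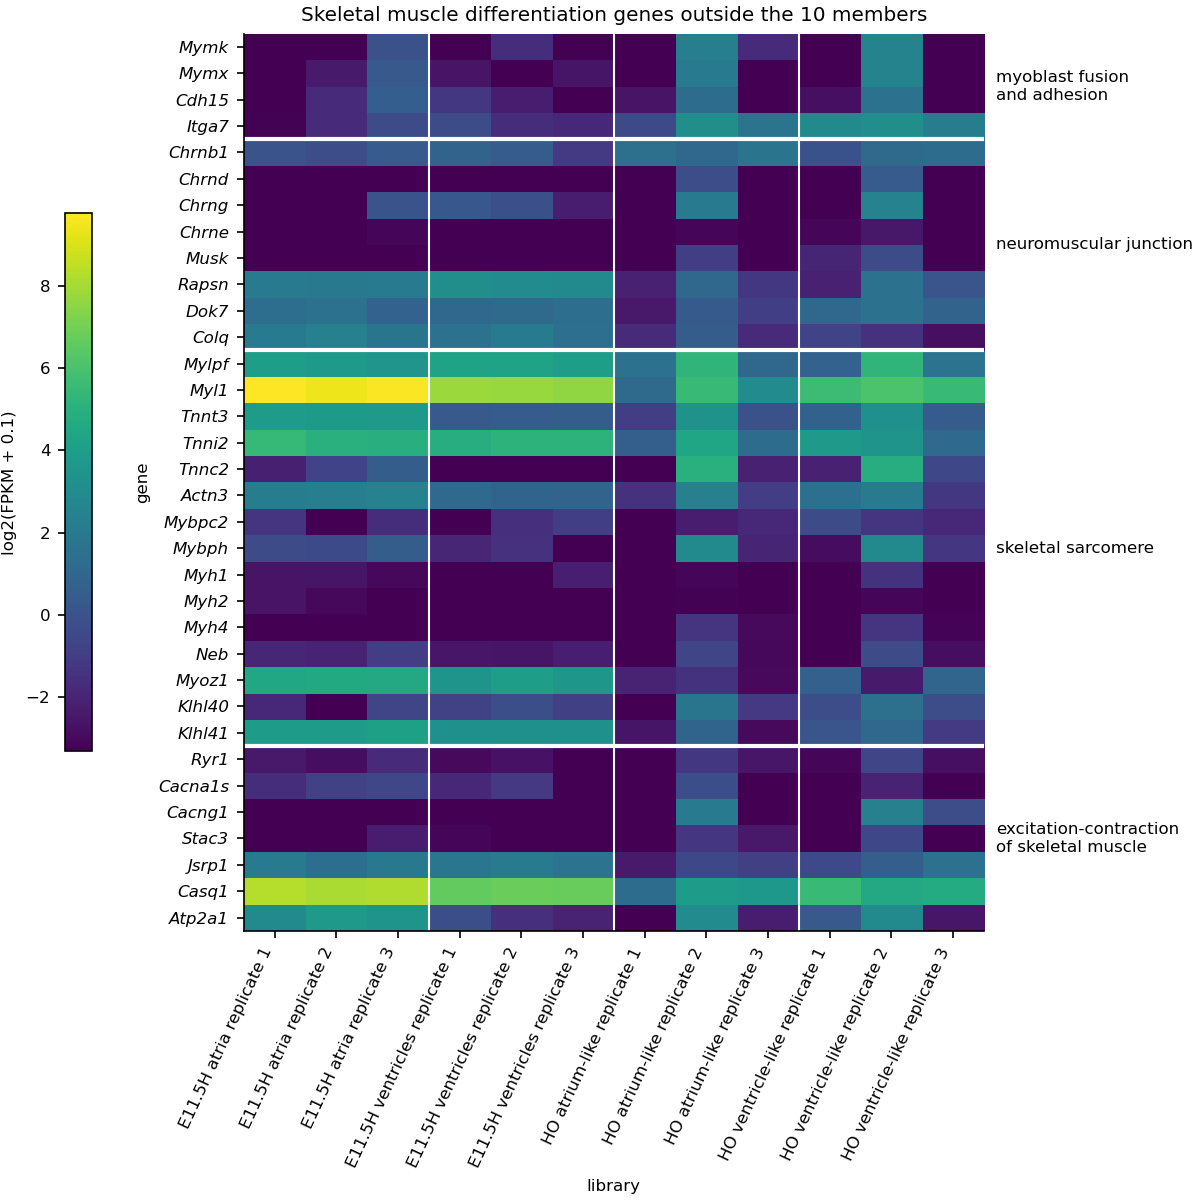
Level, as log2(FPKM + 0.1), of 34 skeletal muscle differentiation genes (rows, in 4 lists) in the 12 libraries (columns, groups of 3 divided by lines). Replicate 2 of both HO parts stands out for Mymk, Mymx, Chrng, Tnnc2, Mybph and Cacng1, while Myl1, Tnni2 and Casq1 are highest in atria of E11.5H.

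Markers of other cell types were set beside the members. Over all genes the share higher in both HO libraries with Myod1 was 18.4%. Of 14 neural and neural crest markers with at least 1 CPM, 9, among them Sox10, Foxd3, Tubb3, Tfap2a, Tfap2b and Zic1, were higher in both. Sox2, Pax6, Elavl3, Elavl4 and Stmn2 were not. Tubb3 was at 42.9 FPKM in atrium-like replicate 2 and 40.9 FPKM in ventricle-like replicate 1, and Stmn2 at 17.5 and 23.2 FPKM. The summed level of the list of 20 was 79.3 FPKM in atrium-like replicate 2 and 310 FPKM in ventricle-like replicate 2. Ventricle-like replicate 1, without Myod1, had a neural sum of 72.0 FPKM, and the other 3 HO libraries had 1.02 to 9.34 FPKM. Of 7 cartilage and sclerotome markers 3 (Sox9, Acan and Col9a1) were higher in both, with sums of 60.5 and 65.8 FPKM against 12.1 to 38.0 FPKM. Pax1 was at 0 in every library except ventricle-like replicate 3, at 0.491 FPKM. Of 10 fibroblast and mesenchyme markers 5 were higher, and their sum was 3059 and 2072 FPKM, within the range of 518 to 4791 FPKM in the other 4. None of 12 endoderm and liver markers was higher and Afp was lower, with sums of 1155 and 370 FPKM against 617 to 13509 FPKM. None of 14 cardiomyocyte and none of 6 smooth muscle markers was higher in both libraries than in each of the other 4. The part of these other cell types in the levels of the muscle genes was not tested.

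Ventricle-like replicate 1 had the lowest endodermal sum of the 4 HO libraries without Myod1 (617 FPKM), the highest mesenchymal sum (4791 FPKM) and a neural sum of 72.0 FPKM, near the 79.3 FPKM of atrium-like replicate 2 and below the 310 FPKM of ventricle-like replicate 2. The order was also taken against that library alone, a choice made after seeing the data. Then 24 of the 32 differentiation genes (75.0%) were higher in both libraries with Myod1, against 38.0% of the 16114 genes. These genes were selected as before, so nothing is read from this count either. Of the members 7 of 8 were higher, and that library held no fragment of Myod1, Myf5, Myf6, Myog, Pax3, Pax7 or Myh3.

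**Figure D4:**
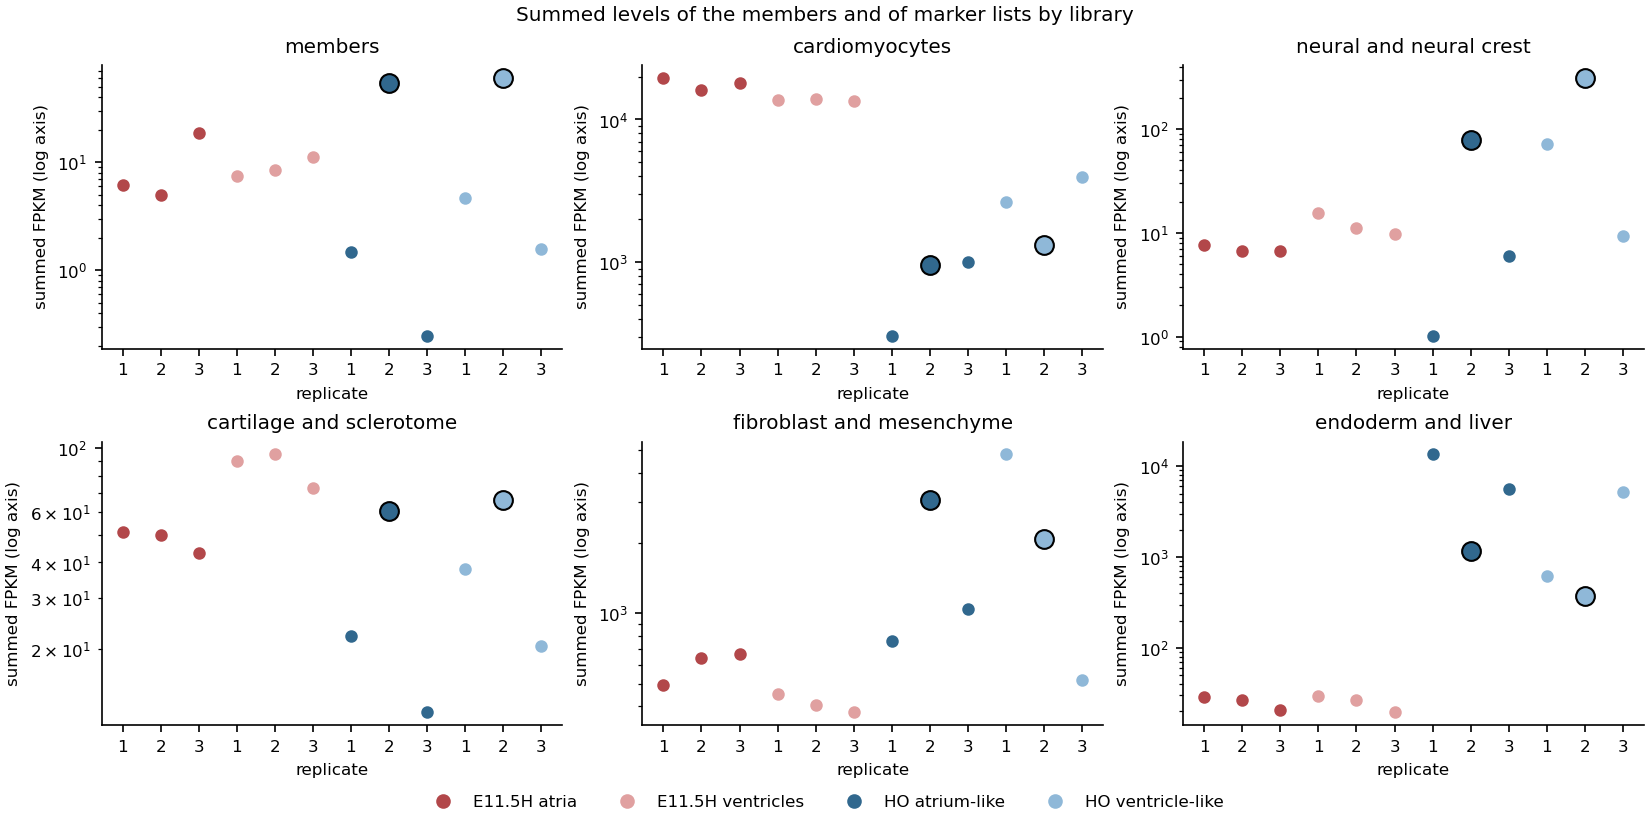
Summed FPKM (log axis) of the 10 members and of 5 marker lists in each library, with replicate 2 of both HO parts, which hold Myod1, drawn larger with a black edge. The member sum of 53.9 and 60.0 FPKM in these exceeds that of the other 4 HO libraries, while their cardiomyocyte sums of 959 and 1327 FPKM lie inside the range of the others.

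The genes most like Myod1 were found by Pearson correlation of log2(CPM + 0.5) over the 12 libraries, among 16505 genes with at least 1 CPM in some library. Myog came at rank 1 (r = 0.99), Pax3 at rank 2 (r = 0.98), Myf5 at rank 4 (r = 0.97), Myh8 at rank 6 (r = 0.96) and Myh3 at rank 15 (r = 0.93), so that 5 members were among the first 50 genes. Chrna1 was at rank 69 (r = 0.85) and Ckm at rank 11681 (r = -0.07). The 10 nearest genes outside the members were Btbd17, Mymx, Pnlip, Morc1, Cdh15, Asic2, Mybph, Sstr1, Spock2 and Tnnc2, with r from 0.98 to 0.93. Of these Mymx, Cdh15, Mybph and Tnnc2 were in the muscle lists, and Morc1, Pnlip and Sstr1 never exceeded 0.873 FPKM. The points share the 2 HO libraries with Myod1 and atria replicate 3, and the correlations describe that shared pattern. The members were chosen for the contrast in Myod1, so nothing is read from their ranks or their number among the first 50. Over the 6 HO libraries alone 2 of these 10 genes were again among the 10 nearest, and by Spearman correlation 3 were.

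The embryonic chambers gave a comparison that the choice of HO libraries did not use. Genes were tested on fragment numbers with edgeR's quasi-likelihood test and called where the p adjusted by Benjamini-Hochberg was under 0.05 and the log2 fold change over 1 in size, and 712 of 14536 genes passed (4.90%), 2.92% higher and 1.97% lower in atria. Of the members Myog and Ckm passed the filter on low counts and were called, and because Myog passed through its atrial level alone, nothing is read from that count against the background. Myog was higher in atria by 5.73 on the log2 scale (standard error 1.16, adjusted p = 0.00899), with 34, 65 and 382 fragments in atria against 2, 6 and 0 in ventricles. Every atria library was above every ventricle library, but without atria replicate 3 the difference was 3.98 and no longer passed (adjusted p = 0.0746). Ckm was lower in atria by 1.19 on the log2 scale (log2 fold change -1.19, standard error 0.32, adjusted p = 0.0347), a call that was lost on leaving out atria replicate 2 (-0.89, adjusted p = 0.0623), atria replicate 3 (-1.29, adjusted p = 0.0779), ventricles replicate 2 (-1.24, adjusted p = 0.0825) or ventricles replicate 3 (-0.97, adjusted p = 0.112).

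The other 8 members had too few fragments in E11.5H for that filter. Myod1 had 4, 51 and 206 fragments in atria and 0 in each ventricle library. Taking 3 counts in each ventricle library as the limit, it was at least 28.5-fold higher in atria, and at least 8.54-fold higher without atria replicate 3, which held 80.0% of the atrial CPM. Pax3 was at least 13-fold higher, or 2.49-fold without that library, and Myf5 at least 3.71-fold, or 1.25-fold without it. These folds are of the atrial mean, and atria replicate 1 held 0 fragments of Pax3 and of Myf5, as did each ventricle library. With no filter on low counts edgeR called 769 of 18603 genes. Besides Myog and Ckm it then called Myod1 (adjusted p = 0.00678), Pax3 (adjusted p = 0.0392) and Myh8 (adjusted p = 0.0449), all higher in atria. These genes had at most 1 fragment in any ventricle library and could be called only through their atrial levels. Nothing is read from the number of members called. Leaving out atria replicate 1 gave 5 called members, the same 5 genes as without the filter, where 765 of 14903 genes were called. Leaving out atria replicate 3 gave 0 called members.

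Of 6 members with at least 1 CPM in an E11.5H library, 5 (Myod1, Myog, Pax3, Myh3 and Myh8) had their highest level in atria replicate 3, where 25.1% of 14343 genes had theirs. The same was true of 10 of 14 muscle progenitor genes, 3 of 4 fusion and adhesion genes (Mymk, Mymx and Cdh15), 5 of 12 skeletal sarcomere genes and 3 of 5 excitation-contraction genes, but of 0 of 5 neuromuscular junction genes. Among markers of other cell types it was 2 of 14 for cardiomyocytes, 4 of 10 for fibroblasts and mesenchyme (Col1a2, Col3a1, Dcn and Lum), 1 of 8 for neural and neural crest, and 0 for the cartilage, endoderm and smooth muscle lists. The part of these cell types in the muscle genes of that library was not tested. A gene could reach 1 CPM through atria replicate 3 alone, as Pax3 did (3.71 CPM there, 0.546 CPM in atria replicate 2). Nothing is therefore read from these counts against the 25.1%. Of the listed muscle genes outside the members, Msc, a repressor of the MyoD family, was higher in atria by 4.90 (standard error 1.15, adjusted p = 0.0189) and the transcriptional coactivator gene Eya1 by 1.92 (standard error 0.50, adjusted p = 0.0308), while the mesodermal homeobox gene Meox1 was lower (log2 fold change -1.91, adjusted p = 0.000916). These 3 were the called genes among 11 tested progenitor genes. Msc was at 0, 0.124 and 0 FPKM in ventricles and at 0.677, 0.846 and 2.60 FPKM in atria. It passed the filter on low counts through its atrial levels, so nothing is read from its call. The size of its fitted change is not a bound. In the skeletal sarcomere list Myl1, Tnnt3 and Actn3 were higher in atria among 12 tested genes, in the excitation-contraction list Casq1 and Atp2a1 among 5, and in the neuromuscular junction list Rapsn was lower among 5. Among all genes tested between these chambers, 2.92% were called higher and 1.97% lower in atria.

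Each HO part was compared with the matching chamber, where the members chosen for their HO levels enter the contrast. Between atrium-like parts and atria 3821 of 15418 genes were called (24.8%), 16.0% higher and 8.81% lower. Of the members 5 were tested and 0 called by edgeR, with 0 at an unadjusted p under 0.05 and 0 called by DESeq2, which gave no adjusted p for Myog. The log2 fold changes were 1.26 for Myod1 (standard error 2.36), 1.56 for Myog (2.22), -0.11 for Pax3 (2.31), 1.74 for Myh8 (2.43) and -0.96 for Ckm (1.42). Of Myod1, Pax3 and Myh8, fragments were present in 1 of the 3 atrium-like libraries. Without that library, replicate 2, Myog was lower in HOs than in atria (log2 fold change -6.88, adjusted p = 0.0269). Replicate 2 was picked for Myod1 and held 1457 Myog fragments, against 0 and 2 in replicates 1 and 3. The call without it follows from that choice and is no independent support.

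Between ventricle-like parts and ventricles 2859 of 15094 genes were called (18.9%), 11.6% higher and 7.35% lower. Of the members 2 were tested, and Chrna1 was called higher (log2 fold change 8.36, standard error 2.32, adjusted p = 0.0403). It had 11.8, 489.5 and 9.9 fragments in the 3 ventricle-like libraries and 0, 0.3 and 1 in ventricles, so the size of the fitted change is not a bound. It passed the filter only through the ventricle-like parts, and most of its fragments came from replicate 2, the library picked for Myod1, so this call is no independent support. After rounding there were 512 fragments against 1, a ratio of 504 when scaled to the library totals (95% exact counting interval 90.1 to 19958). Without ventricle-like replicate 2 there were 22 against 1, a ratio of 32.5 (5.26 to 1343), and the rounding of 0.3 to 0 raises both ratios. The call was lost without that library (adjusted p = 0.0575) and on leaving out any ventricle library (adjusted p = 0.142, 0.144 and 0.147). Ckm was lower without passing (log2 fold change -2.0, standard error 0.60, adjusted p = 0.0511), and DESeq2 called it (adjusted p = 0.00569) while giving no adjusted p for Chrna1.

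Of 4 tested genes of the neuromuscular junction list, in atrium-like parts against atria, Chrnb1 was higher (log2 fold change 1.64, adjusted p = 0.0365) and Colq lower (-2.76, adjusted p = 0.0404). In the skeletal sarcomere list 0 of 12 tested genes were higher and 3 lower (Myl1, Myoz1 and Klhl41), with a list median log2 fold change of -1.02 against 0.06 over all genes. In ventricle-like parts against ventricles the same 3 genes were lower among 11 tested and 0 were higher, with a list median of 0.27 against 0.09. The integrin gene Itga7, which was the 1 tested gene of the fusion and adhesion list, was higher there (log2 fold change 4.07, standard error 0.62, adjusted p = 0.00717). Of 12 muscle genes shared with the embryonic heart 9 were lower and Sln was higher, and 10 of 14 cardiomyocyte markers were lower. Among all genes tested between ventricle-like parts and ventricles, 11.6% were called higher and 7.35% lower. Between atrium-like parts and atria these shares were 16.0% and 8.81%.

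**Figure D5:**
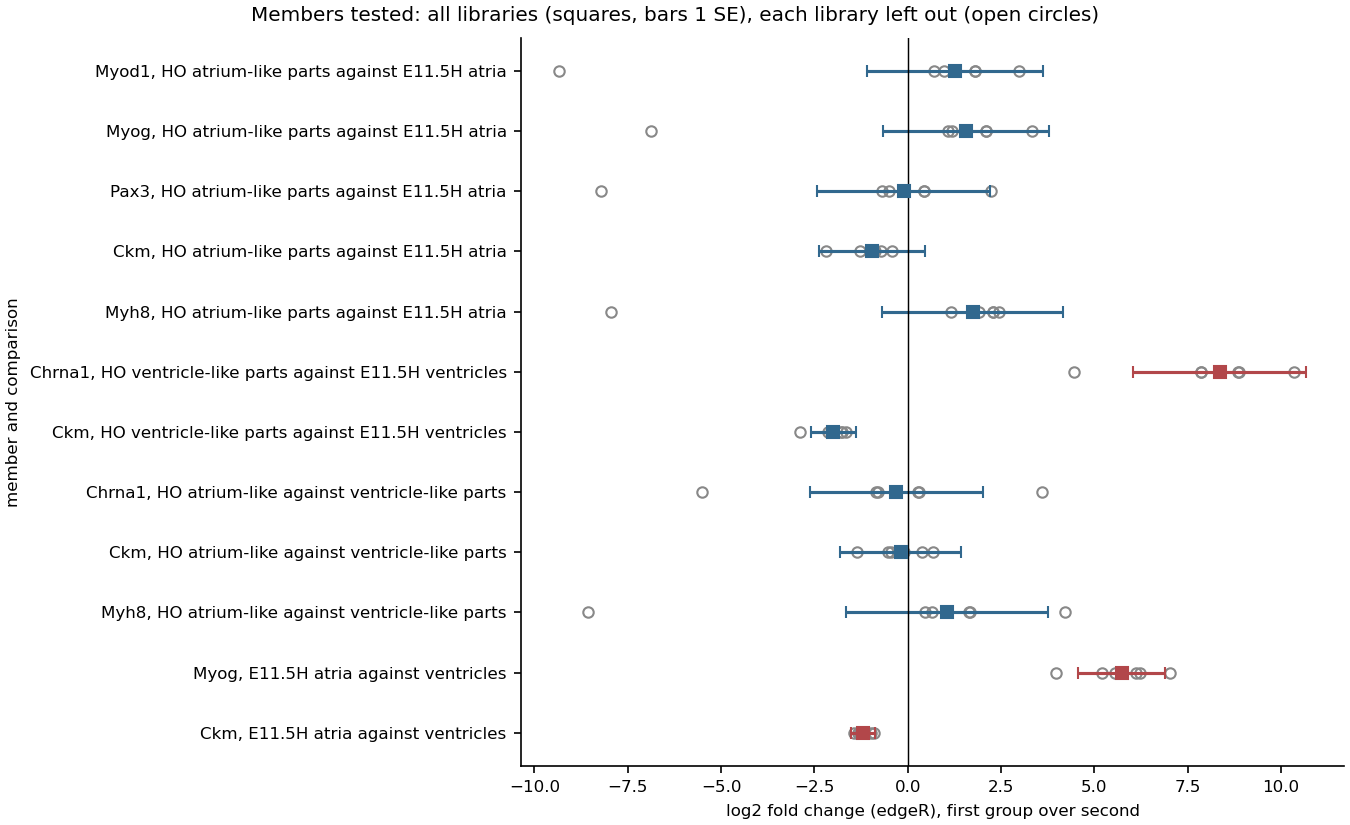
Log2 fold change of each tested member in 4 comparisons, from all libraries (squares with bars of 1 standard error, red where called and blue where not) and with each library left out in turn (open circles). Myog, Myod1, Pax3 and Myh8 in atrium-like parts fall to between -9.35 and -6.88 when replicate 2 is left out.

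Between atrium-like and ventricle-like parts 0 of 15703 genes were called by edgeR, with 889 at an unadjusted p under 0.05 and 59 called by DESeq2, so the share called was 0%. Of the members 3 were tested, with log2 fold changes of -0.30 for Chrna1 (standard error 2.32), -0.19 for Ckm (1.62) and 1.05 for Myh8 (2.70), and 0 had an unadjusted p under 0.05. The interaction of chamber and tissue, which asks whether the difference between HOs and E11.5H was the same in both chambers, was called for 25 of 16494 genes (0.152%), 0.0243% higher and 0.127% lower. Of 8 members tested 0 were called by edgeR and 0 had an unadjusted p under 0.05, the lowest adjusted p being that of Myod1 (log2 fold change -10.21, standard error 5.87, adjusted p = 0.528). DESeq2 called 444 genes, among them Myod1 (log2 fold change -21.83, adjusted p = 0.0118) and Pax3 (-20.17, adjusted p = 0.0251). Both were at 0 in all ventricles of E11.5H, so the size of these fitted changes is not a bound. Their HO fragments came only from the libraries picked for Myod1, so these calls are no independent support. In levels, Myod1 was found in E11.5H in atria and not in ventricles, and in HOs in 1 library of each part.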

How the data were processed

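Strand use in counting is not given in the sources used here. The labels name an Illumina TruSeq kit for total RNA. The authors mapped reads with STAR to mm10 (GRCm38) and deposited, for each gene and library, expected counts of fragments without normalization and FPKM values, which are scaled to transcript length and library total. The counting tool is likewise not given. Of the deposited counts 23.8% were not whole, and they were rounded before testing.
Groups came from the labels. The quasi-likelihood test of edgeR 4.0.16 (R 4.3.3) was applied to rounded counts after TMM and filterByExpr (minimum count 10), and p-values were adjusted by Benjamini-Hochberg over all genes tested. Each pair of groups was fitted alone, and the interaction over all 12 libraries. Alternatives were DESeq2 1.42.0, its size factors in edgeR, no filter, a replicate block, and leaving out each library. The scripts were tested on simulated data. Promoter windows came from RefSeq GRCm38.p6. Python 3.11.15 with matplotlib 3.10.9 made the plots.
The members, gene lists and marker lists were chosen with earlier results of these data known. The text names all 10 members, genes of the lists by their counts with the most abundant in HOs, called or separate genes beside these, and the 10 genes most like Myod1. Genes named for their zero levels or for overlap were chosen after their values were seen. Some genes of the lists enter the counts and sums but are not reported here by name.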

Additional observations from a re-analysis of the deposited data

How the results depend on the processing

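The numbers of called genes moved with the setting. Leaving out each library in turn gave 1662 to 5495 calls between atrium-like parts and atria, 1116 to 3725 between ventricle-like parts and ventricles, 538 to 765 between the chambers of E11.5H, and 2 to 216 in the interaction, and called members numbered 0 to 1, 0 to 2, 0 to 5 and 0 to 0. Directions of single members turned on leaving out 1 library. Between atrium-like parts and atria the log2 fold changes ran from -9.35 to 2.98 for Myod1, -6.88 to 3.32 for Myog, -8.21 to 2.23 for Pax3 and -7.95 to 2.44 for Myh8, the lowest of each without atrium-like replicate 2 and the highest without atria replicate 3. Between the HO parts they ran from -5.50 to 3.59 for Chrna1, -1.36 to 0.69 for Ckm and -8.55 to 4.22 for Myh8. In the interaction they ran from -20.81 to 1.26 for Myod1, -14.13 to 6.07 for Myog, -7.74 to 1.34 for Chrna1, -0.20 to 1.89 for Ckm and -8.91 to 6.45 for Myh3. DESeq2 called 59 genes between the HO parts and 444 in the interaction, with 2 members in the latter. No filter on low counts gave 5 called members between the chambers of E11.5H. TMM factors moved Myod1 in ventricle-like replicate 2 to 37.7 CPM, outside its counting interval. The causes were not tested.

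Whether same-numbered parts came from the same organoids or hearts is not given in the sources used here. The correlations of deviations of same-numbered parts were -0.0809, 0.628 and 0.422 in HOs and 0.0237, 0.0427 and 0.0880 in E11.5H, so the data did not settle the pairing, and the replicate number was left out of the reported fits. With the replicate number as a block, 5 genes and 0 members were called in the interaction, 0 members between ventricle-like parts and ventricles (Chrna1 7.08, adjusted p = 0.0771) and the same 2 members between the chambers of E11.5H, while Myod1 turned to -2.54, Myog to -3.37 and Myh8 to -0.89 between atrium-like parts and atria and Myh8 to -0.75 between the HO parts, none of them called. In all, 204 of 240 recomputed member fold changes kept their direction and their state of being called or not. Most of this count is of members that were not called in either fit, and 116 of the 204 were in the interaction. Of the others 22 turned direction, 10 lost a call and 4 gained one. Values for which DESeq2 gave no adjusted p were left out. A zero count limits a member to 0.0982 to 0.125 CPM.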
